A study of Mus musculus with 6 samples.

Results

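The enzymes of branched-chain amino acid breakdown were examined in brown adipose tissue (BAT) of 3 KRAP-deficient (KRAP-/-, KO) mice and 3 wild-type (WT) littermates. The list held 10 genes, Bcat1, Bcat2, Bckdha, Bckdhb, Dbt, Bckdk, Ppm1k, Ivd, Auh and Hsd17b10, and its members were all probe sets of the array that name 1 of these genes and no other. This gave 21 of the 45037 probe sets that are not array controls. The genes were chosen by the KO and WT signals of these same arrays, so the values below describe that contrast and do not test it.

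KRAP is a protein bound to the actin cytoskeleton. In the KO mice a neomycin resistance cassette stands in place of a run of exons of the KRAP gene in every tissue, so that a change within BAT and a change elsewhere in the body cannot be told apart. The line was backcrossed to C57BL6/J. The 3 KO and 3 WT mice formed 3 littermate pairs (KO 1 with WT 1, KO 2 with WT 2, KO 3 with WT 3), were 32 weeks old and ate normal chow. Each animal gave 1 Affymetrix mouse genome array, and a signal below is the deposited intensity divided by the median of its own array.

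Leucine, isoleucine and valine, the branched-chain amino acids, are burned in mitochondria, and BAT is a tissue known to take them up as fuel for heat production. A transaminase first removes the amino group. The branched-chain ketoacid dehydrogenase complex then commits the carbon skeleton to oxidation, and it is switched off when a kinase phosphorylates its first subunit and on again when a phosphatase removes that phosphate. Several of the enzymes that follow differ between the amino acids.

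The arrays bore the marks of BAT, with summed signals of 6 brown adipocyte markers (Ucp1, Cidea, Prdm16, Ppargc1a, Cox8b and Elovl3) of 1524 to 2126 in KO and 1519 to 2153 in WT. The sums hide single markers that varied. Ppargc1a was at 111.4 in KO 1 and 72.7 in WT 1, the animals of pair 1, against 9.88 to 12.2 on the other arrays. Ucp1 ran from 342.6 to 655.3 and Elovl3 from 6.77 to 40.4, while Cidea and Cox8b stayed within 552.4 to 704.3. Markers of other tissues also varied between the arrays. Skeletal muscle markers (6) summed to 33.2 in KO 1, 559.0 in KO 2 and 15.95 in KO 3, and to 72.9, 44.1 and 212.1 in their WT littermates. The 5 measured liver markers summed to 48.7 in KO 3, to 1.90 and 1.84 in KO 1 and KO 2, and to 0.969 to 1.36 in WT. Of the 3 measured pancreas markers only Cela1 exceeded a signal of 1, and the sum was 3.10 to 3.81 in KO and 6.65 to 17.6 in WT. Macrophage markers (5) summed to 90.7 to 104.0 in KO and 81.6 to 108.1 in WT, and endothelial markers (4) to 32.3 to 34.6 in KO and 32.1 to 46.6 in WT. Within these sums C1qa was higher in KO in every pair, and Cd68, Kdr and Cdh5 were lower in every pair. The other macrophage and endothelial markers did not run one way in all pairs. WT 2 also stood apart in its RNA controls: the 3' end of actin was 3.80 times as bright as the 5' end, where the other 5 arrays had 1.91 to 2.58. The same ratio for pyruvate carboxylase was 52.9 in WT 2, against 8.99 to 25.3 on the other 5. The deposited intensity of the 18S ribosomal RNA control was 1202 in WT 2, against 63.0 to 123.2 on the other 5. The probe set of the KRAP gene (Itprid2) was at 47.0, 35.1 and 41.4 in KO mice and 55.3, 56.6 and 42.2 in WT littermates, and since its place relative to the replaced exons is not known here it does not check the labels. In whole tissue, fewer cells of a type and less RNA per cell cannot be told apart.

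Of the 21 member probe sets, 16 were on average brighter than the array median and entered the comparison across all 22356 such probe sets. With limma and the littermate pair as a block, 0 of the 16 passed an adjusted p of 0.05, as did 0% of all probe sets (0 of 22356, of which 1911 had an unadjusted p under 0.05). Without pair 1 the test passed 224 probe sets in all and 2 of the members, Bcat2 and the dimmer probe set of Ppm1k. Of the 16, 9 were higher in the KO animal of all 3 pairs, where 12.4% of all tested probe sets were. Among these 9 were 2 whose mean exceeded the array median in KO alone, the dimmer one of Ppm1k and a dim one of Auh, and without them the count was 7. A further 2 were lower in all 3 pairs, where 18.4% of all were. All 3 KO signals lay above all 3 WT signals for 8 of the 16 (4.59% of all) and below them for 1 (7.16% of all). The 8 include the dim Auh probe set whose mean exceeded the array median in KO alone. Because the genes were picked for this contrast, these shares carry no weight as evidence.

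By gene, with the brightest tested probe set standing for each of the 9 genes that had one, the median log2 difference (KO minus WT) was 0.28, against -0.07 over 11140 genes. The members' value was 0.13 without pair 3, which holds the KO animal with the liver signal, and 0.40 without pair 2. The members' median was 0.21 in pair 1, 0.04 in pair 2 and 0.51 in pair 3, and the median of all genes was -0.03, -0.24 and 0.06 in the same pairs. The transaminase Bcat2 was 2.33-fold higher in KO, the phosphatase Ppm1k 1.91-fold higher and the isoleucine enzyme Hsd17b10 1.44-fold higher, while the intervals of the other 6 genes included 0. These intervals are not adjusted for the number of genes. Over all 11140 genes, 914 had an unadjusted p under 0.05 (limma), 359 of them higher in KO.

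**Figure D1:**
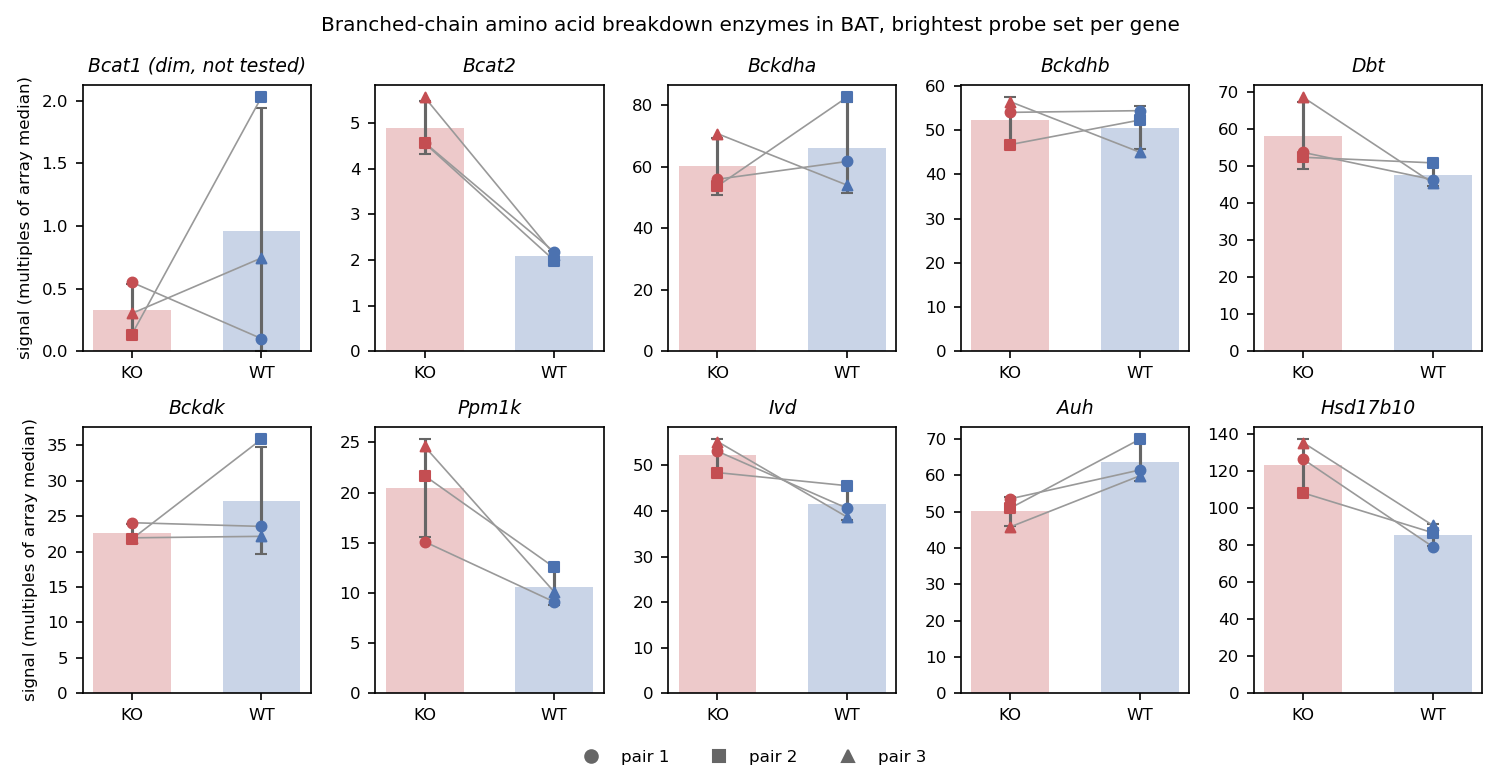
Signals of the 10 genes, brightest probe set of each, as multiples of the array median on linear axes that start at 0. Points are single animals with a shape for each littermate pair, grey lines join littermates, and bars are means with SD (n = 3 per group); the KO points of Bcat2, Dbt, Ppm1k, Ivd and Hsd17b10 lie above all WT points, and those of Auh lie below them.

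The transaminases open the pathway, Bcat1 in the cytosol and Bcat2 in mitochondria. The single probe set of Bcat2 (1425764_a_at) had signals of 4.57, 4.56 and 5.56 in KO mice 1 to 3 and of 2.18, 1.99 and 2.12 in the paired WT mice. All KO signals lay above all WT signals, and the WT animals fell within a narrow band. The means were 4.90 ± 0.577 in KO and 2.09 ± 0.0957 in WT (SD, n = 3 each). The log2 difference was 1.22 (95% confidence interval 0.76 to 1.68), and the KO over WT ratios were 2.10, 2.29 and 2.63 in pairs 1 to 3. Leaving out a pair gave 1.13 to 1.29, and 1.23 without pair 2, which holds the array of WT 2. The probe set was dim, with a mean signal of 3.50, the lowest among the members' brightest tested probe sets. With 1 array median added to every signal before the log2 step, the difference was 0.93. Skeletal muscle is a known site of Bcat2, and the muscle marker sums varied between arrays, from 15.95 to 559.0 in KO and from 44.1 to 212.1 in WT. The part of muscle RNA in the value of Bcat2 was not tested.

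Bcat1 was dim on all 3 of its probe sets, with mean signals of 0.192, 0.462 and 0.644, and none entered the comparison. On the brightest, the KO mice gave 0.552, 0.135 and 0.303 and their WT littermates 0.102, 2.03 and 0.746. The groups overlapped widely, and the highest signal was that of WT 2. The next probe set gave 0.671, 0.396 and 0.737 in KO mice and 0.122, 0.546 and 0.299 in WT littermates, and the dimmest 0.126, 0.137 and 0.315 in KO mice and 0.1497, 0.349 and 0.0749 in WT littermates. Groups overlapped on both, and many of these signals lay under the floor of 0.25 set for the test. A difference of Bcat1 was not detectable on these arrays.

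The core of the dehydrogenase complex is built from Bckdha and Bckdhb, which form the decarboxylase that takes the kinase's phosphate, and Dbt, the acyltransferase at its centre. Bckdha stood at 55.9, 53.7 and 70.7 across the KO mice, pairs 1 to 3, and at 61.7, 82.6 and 54.0 across their WT littermates. The groups overlapped, with the highest signal in WT 2. Its log2 difference was -0.12 (95% confidence interval -0.71 to 0.46) and turned to 0.12 without pair 2. Bckdhb gave 54.0, 46.7 and 56.4 in the KO mice of pairs 1 to 3, against 54.4, 52.3 and 45.0 in their WT littermates. Its groups overlapped as well, and the log2 difference of 0.05 (95% confidence interval -0.43 to 0.53) turned to -0.09 without pair 3. In folds these intervals ran from 0.610 to 1.38 for Bckdha and from 0.741 to 1.45 for Bckdhb. A rise or a fall of a size within them is compatible with the 6 arrays.

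Dbt had signals of 53.6, 52.3 and 68.5 in KO mice 1 to 3 and of 46.3, 50.8 and 45.4 in the paired WT mice. All KO signals lay above all WT signals, by a small margin between KO 2 and WT 2. The log2 difference was 0.28 (95% confidence interval -0.21 to 0.78) and 0.13 without pair 3, whose KO animal also carried the liver marker signal. The part of that signal in the value of Dbt was not tested.

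Control of the complex rests on the kinase Bckdk, which switches it off, and the mitochondrial phosphatase Ppm1k, which switches it on. The bright probe set of Ppm1k (1452973_at) stood at 15.1, 21.7 and 24.6 across the KO mice, pairs 1 to 3, and at 9.11, 12.5 and 10.1 across their WT littermates. Each KO animal stood above every WT animal, and KO 1 was the lowest of its group. The means were 20.5 ± 4.86 in KO and 10.6 ± 1.76 in WT (SD, n = 3 each), and the ratios within pairs 1.66, 1.73 and 2.43. The log2 difference was 0.93 (95% confidence interval 0.43 to 1.43). It was 1.04, 1.01 and 0.76 without pair 1, 2 or 3. A second, dim probe set of Ppm1k (1441988_at) gave 1.84, 1.41 and 2.76 in the KO mice of pairs 1 to 3, against 1.52, 0.450 and 0.987 in their WT littermates. Its groups overlapped through KO 2 and WT 1, the ratios within pairs were 1.21, 3.13 and 2.80, and the log2 difference was 1.14 (95% confidence interval 0.41 to 1.86). With means of 2.00 in KO and 0.984 in WT it entered the comparison only through the KO arrays, so it adds no support to the bright probe set.

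The main probe set of Bckdk had signals of 24.1, 21.7 and 21.9 in KO mice 1 to 3 and of 23.5, 35.8 and 22.1 in the paired WT mice. WT 2 lay apart from the other 5 animals, which fell between 21.7 and 24.1. The log2 difference was -0.23 (95% confidence interval -0.78 to 0.31), and 0.01 without pair 2. A second probe set of Bckdk, of a kind whose probes can match other transcripts, had signals of 6.06, 6.78 and 6.90 in KO mice and 5.82, 7.53 and 6.69 in WT littermates. Its groups overlapped, and the log2 difference was -0.02 (95% confidence interval -0.47 to 0.44). As on the probe set of Bckdha, the highest signal was that of WT 2, the array with the steepest actin ratio (3.80), and the part of RNA quality in it was not tested.

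A ratio of 2 probe sets within 1 array does not depend on how arrays are scaled to each other. The Ppm1k over Bckdk signal ratio was 0.628, 0.996 and 1.12 in KO mice, against 0.387, 0.350 and 0.456 in WT littermates. Every KO animal lay above every WT animal. Its KO over WT quotients were 1.62, 2.85 and 2.46 in pairs 1 to 3, with a geometric mean of 2.25. The quotient of 2.85 in pair 2 holds the high Bckdk signal of WT 2 (35.8, against 21.7 to 24.1 on the other 5 arrays). As with the single signals, these ratios describe genes chosen on the same arrays. The Bcat2 over Bckdha signal ratio was 0.0817, 0.0849 and 0.0786 in KO mice, against 0.0353, 0.0241 and 0.0392 in WT littermates, with quotients of 2.32, 3.52 and 2.01. The quotient of 3.52 in pair 2 holds the high Bckdha signal of WT 2 (82.6, against 53.7 to 70.7 on the other 5 arrays). The Bcat2 over Ppm1k quotients were 1.27, 1.33 and 1.08, closer to 1 than those of either other ratio. The absolute size of such a ratio has no meaning, since probe sets differ in brightness.

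**Figure D2:**
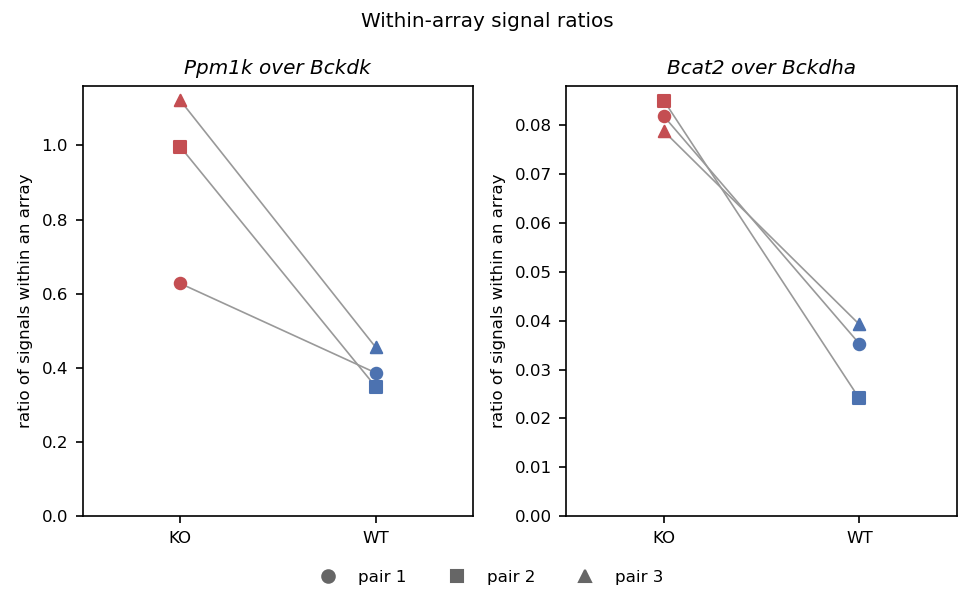
Ratios of signals within each array for Ppm1k over Bckdk and Bcat2 over Bckdha, on linear axes that start at 0. Points are single animals with a shape for each littermate pair and grey lines join littermates, and in both panels the 3 KO points lie above the 3 WT points.

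Past the complex, the members serve single amino acids. Hsd17b10, the dehydrogenase of isoleucine breakdown that is also a subunit of mitochondrial RNase P, stood at 126.6, 108.4 and 135.6 across the KO mice, pairs 1 to 3, and at 79.3, 86.8 and 90.8 across their WT littermates. All KO signals lay above all WT signals. The means were 123.5 ± 13.9 in KO and 85.6 ± 5.86 in WT (SD, n = 3 each), a log2 difference of 0.52 (95% confidence interval 0.06 to 0.99) with ratios of 1.60, 1.25 and 1.49 in pairs 1 to 3. Its second probe set, of the kind open to cross-matching, gave 55.1, 45.7 and 54.7 in the KO mice of pairs 1 to 3, against 36.7, 38.0 and 36.2 in their WT littermates, a log2 difference of 0.48 (95% confidence interval 0.02 to 0.95). Leaving out a pair gave 0.45 to 0.63 on the brighter probe set, and the 2 probe sets gave nearly the same fold.

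Ivd, the isovaleryl-CoA dehydrogenase of leucine breakdown, had 2 probe sets made from the same source sequence. The brighter had signals of 53.1, 48.4 and 55.2 in KO mice 1 to 3 and of 40.6, 45.5 and 38.7 in the paired WT mice, and the other stood at 44.8, 41.9 and 51.2 across the KO mice, pairs 1 to 3, and at 41.2, 40.8 and 29.9 across their WT littermates. On both, the KO animals lay above the WT animals, on the second by a narrow margin. Their log2 differences were 0.33 (95% confidence interval -0.14 to 0.80) and 0.31 (95% confidence interval -0.23 to 0.85), and both intervals include 0.

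Auh, a hydratase of leucine breakdown that also binds RNA, ran the other way on its bright probe set. This gave 53.5, 50.9 and 45.8 in the KO mice of pairs 1 to 3, against 61.4, 69.9 and 59.8 in their WT littermates. All KO signals lay below all WT signals. The log2 difference was -0.35 (95% confidence interval -0.80 to 0.11), with ratios of 0.871, 0.729 and 0.765 in pairs 1 to 3. Of its 3 dim tested probe sets, the first read 2.04, 2.53 and 3.27 in KO mice against 2.30, 2.34 and 2.80 in WT littermates, a log2 difference of 0.05. The second read 1.72, 1.19 and 1.83 in KO mice against 2.34, 1.31 and 1.98 in WT littermates, a difference of -0.23 that was lower in all 3 pairs although the groups overlapped. The third read 1.12, 1.27 and 1.09 in KO mice against 0.987, 1.05 and 0.947 in WT littermates, a difference of 0.22 with all KO above all WT signals. The last 2 probe sets were too dim to enter, with 0.0358 to 0.125 and 0.104 to 0.260 in KO mice and 0.0597 to 0.285 and 0.136 to 0.852 in WT mice. Averaged with equal weight over its 4 tested probe sets, Auh had a log2 difference of -0.08. The bright probe set and the second dim one were lower in all 3 pairs, and the other tested ones were not.

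**Figure D3:**
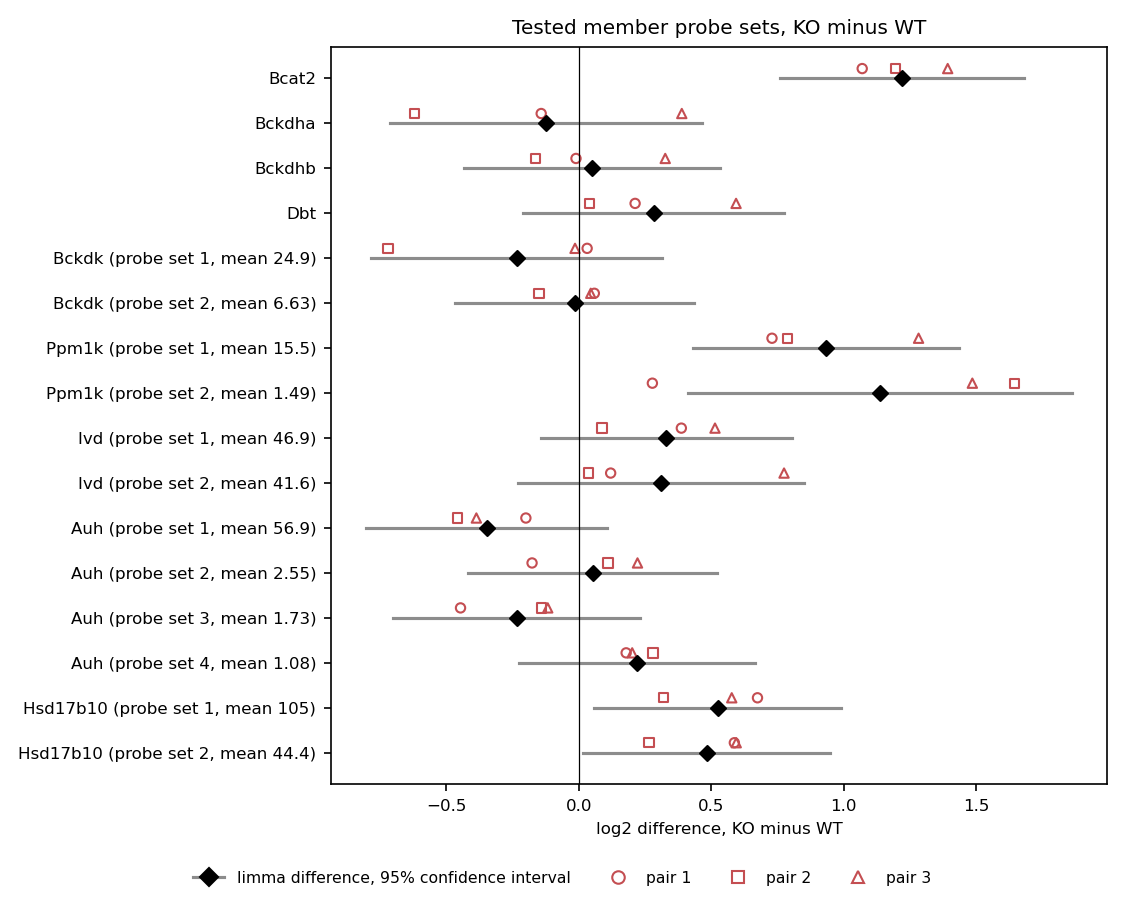
Log2 differences (KO minus WT) of the 16 tested member probe sets, in pathway order. Black diamonds with grey bars are limma estimates with 95% confidence intervals, and open red symbols are the 3 littermate pairs, and the intervals of Bcat2, of both Ppm1k and of both Hsd17b10 probe sets lie above 0, while the others cross 0.

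The study's own filter, a change of 1.5-fold or more in all 3 pairs, was met by 2 of the 16 member probe sets, Bcat2 and the bright one of Ppm1k, both higher in KO (0.555% of all tested probe sets were higher and 0.819% lower by this filter). At 1.2-fold the count was 5, all higher in KO (2.84% of all were higher and 4.35% lower), and at 2-fold it was 1, Bcat2 (0.0939% of all were higher and 0.116% lower). The 5 include the dim probe set of Ppm1k, which entered the comparison only through the KO arrays.

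The start regions of the 3 genes whose unadjusted intervals lay above 0 are shown because these genes differed in the same direction. The windows run from 250 bases before to 50 bases after an annotated transcript start in RefSeq (build GRCm38.p6), and 9 of the 10 members have one. Capitals mark matches, on either strand, to 4 motifs searched: CACGTG (E-box), AAGGTCA (a nuclear receptor half-site), CCAAT, and CCACCC, a core of the CACCC boxes that Krüppel-like factors bind. The Bcat2 window is chr7:45569903-45570202 (plus strand), the Ppm1k window chr6:57535438-57535737 (minus strand) and the Hsd17b10 window chrX:152001646-152001945 (plus strand).
Bcat2: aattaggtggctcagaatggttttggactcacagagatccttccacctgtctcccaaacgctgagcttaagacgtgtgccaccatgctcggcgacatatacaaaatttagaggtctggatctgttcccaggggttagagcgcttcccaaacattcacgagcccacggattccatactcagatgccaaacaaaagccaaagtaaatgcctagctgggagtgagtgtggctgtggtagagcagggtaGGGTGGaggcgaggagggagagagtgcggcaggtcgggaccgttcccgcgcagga
Ppm1k: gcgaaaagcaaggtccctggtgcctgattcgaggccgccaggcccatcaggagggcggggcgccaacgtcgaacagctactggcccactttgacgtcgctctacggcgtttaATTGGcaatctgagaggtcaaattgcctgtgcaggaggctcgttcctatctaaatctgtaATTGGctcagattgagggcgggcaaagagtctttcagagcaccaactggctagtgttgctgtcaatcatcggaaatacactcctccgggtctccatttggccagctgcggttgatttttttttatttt
Hsd17b10: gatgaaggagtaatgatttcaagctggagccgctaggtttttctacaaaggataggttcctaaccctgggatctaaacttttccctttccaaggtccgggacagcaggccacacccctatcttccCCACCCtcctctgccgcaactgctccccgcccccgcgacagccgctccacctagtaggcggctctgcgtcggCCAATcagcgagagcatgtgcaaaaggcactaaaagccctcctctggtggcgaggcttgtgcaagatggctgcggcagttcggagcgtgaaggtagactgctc
Counting back from the start, with -1 the base before it, Bcat2 held 1 CCACCC match at -5, and a second Bcat2 window held none of the 4 motifs. Ppm1k held 2 CCAAT matches, at -138 and -78. Hsd17b10 held 1 CCAAT match at -53 and 1 CCACCC match at -125. Of the members' 12 windows, 7 held CCAAT and 4 held CCACCC, found in 37.4% and 31.5% of all 32851 windows of that length, and 0 held CACGTG or AAGGTCA, found in 7.15% and 4.72%. None of the 4 motifs was in all 3 windows. A match is a string of letters and says nothing of binding.

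Among the other genes of the pathway, 17 had a tested probe set and 0 passed the adjusted test in either direction (smallest adjusted p 0.396, limma). This list, which includes the regulator Klf15, was also chosen with earlier results of these data known. Its values describe the contrast and are no independent finding. Of the 17, 4 were higher and 0 lower in all 3 pairs, where 10.9% of all 11140 genes were higher and 19.7% lower. Their median log2 difference was 0.02, against -0.07 over all genes, and -0.13 without pair 3. The largest difference was that of Klf15, a Krüppel-like transcription factor known in mouse muscle to raise Bcat2 transcription. It had signals of 9.91, 5.80 and 6.69 in KO mice 1 to 3 and of 4.31, 1.83 and 3.94 in the paired WT mice. All KO signals lay above all WT signals, and WT 2 was the lowest array. The log2 difference was 1.21 (95% confidence interval 0.65 to 1.77, adjusted p = 0.396), or 0.98 without pair 2, and the ratios within pairs were 2.30, 3.17 and 1.70.

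The other genes higher in all 3 pairs differed by less. Aldh6a1, the methylmalonate semialdehyde dehydrogenase of valine breakdown, differed by 0.32 (95% confidence interval -0.16 to 0.79), on signals of 167.9, 190.8 and 230.7 in KO mice and 157.7, 149.3 and 163.1 in their WT littermates. Hibadh, which precedes it in the valine path, differed by 0.17, and Mcee, an epimerase of propionyl-CoA use, by 0.09. Slc25a44, the mitochondrial carrier that brings branched-chain amino acids into the matrix of brown adipocytes, gave -0.41 (95% confidence interval -1.02 to 0.21) on its brightest probe set, with ratios of 0.798, 0.501 and 1.07 in pairs 1 to 3. Its dimmer probe sets gave -0.52 and -0.33 and were lower in KO in 3 of 3 pairs each. Dld, the subunit that the complex shares with pyruvate dehydrogenase, differed by -0.09 (95% confidence interval -0.57 to 0.38).

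**Figure D4:**
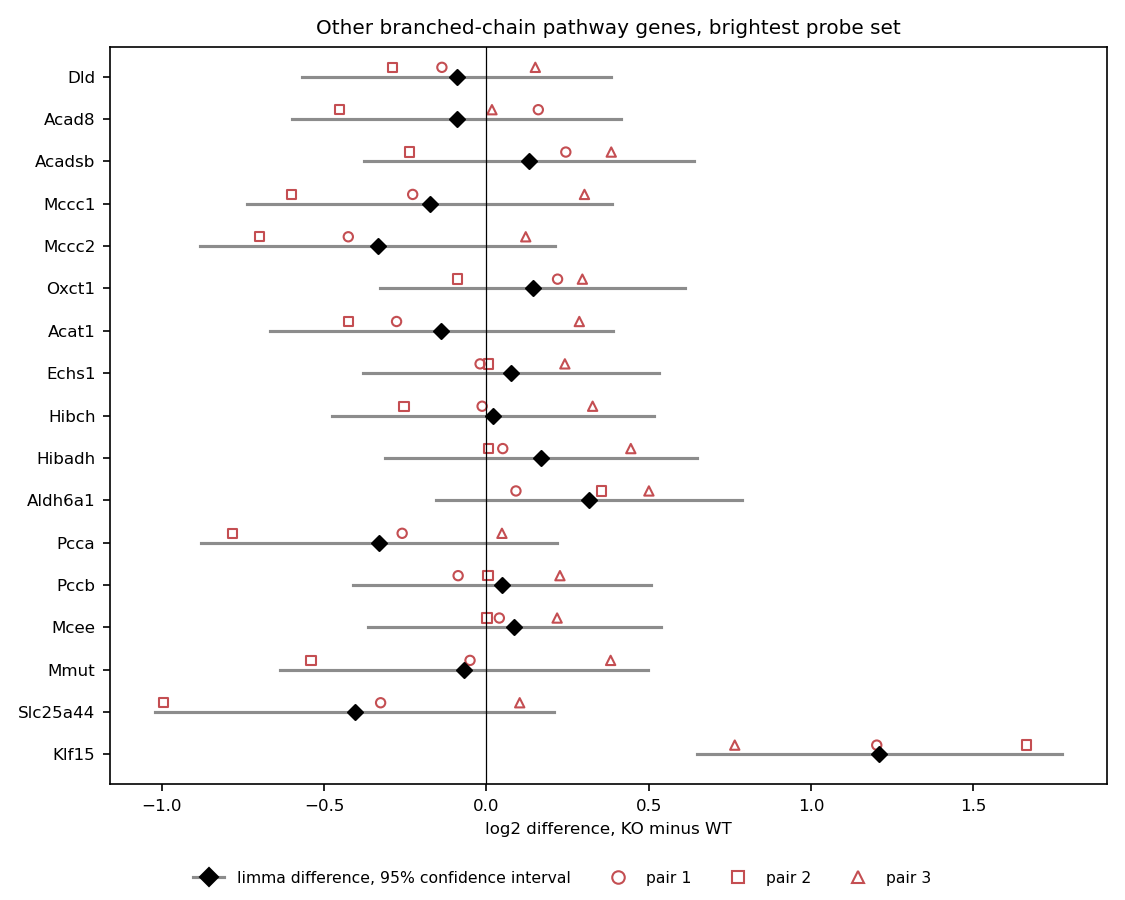
Log2 differences (KO minus WT) of 17 further genes of the pathway, brightest probe set of each. Black diamonds with grey bars are limma estimates with 95% confidence intervals and open red symbols are the 3 littermate pairs, and among these 17 the interval of Klf15 alone lies clear of 0.

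The pyruvate dehydrogenase complex, built on the same plan and governed by its own kinases and phosphatases, was set beside the members. Of its 10 tested genes, 4 were lower and 1 higher in KO in all 3 pairs (19.7% and 10.9% of all genes). Their median log2 difference was -0.18, against -0.07 over all genes, and by pair it was -0.25, -0.43 and 0.12. The lowest difference among the 10 was that of Pdhb (-0.49) and the highest that of Pdk2 (0.29), and 0 passed the adjusted test. No test of the difference between the lists was made.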

How the data were processed

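Total RNA from BAT of 3 KO and 3 WT mice was run on Affymetrix mouse arrays, 1 per animal. The authors deposited 1 linear signal intensity per probe set, made with GCOS per the labels, with version, algorithm and scaling not given in the sources used here. Array medians of these deposited intensity values were 16.5 to 20.4.

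Each intensity was divided by its array median, as in the study's methods, raised to a floor of 0.25 and put on the log2 scale. Those averaging above 1 were fitted with limma 3.58.1 (R 4.3.3), modelling genotype plus littermate pair, with p-values adjusted over 22356 probe sets (Benjamini-Hochberg). The series' design text names the numbered littermate pairs, and the correlation of littermates' deviations was 0.446, 0.0847 and 0.160. Between non-littermates it ran from -0.359 to 0.281, the highest being KO 2 with WT 3, above that of KO 2 with its littermate. Gene symbols came from the platform annotation. The 64 control probe sets were set aside. The fit was tested on simulated data. Members and lists were chosen with earlier results of these data known. Named were all members, the pathway genes that ran one way in all pairs, Slc25a44, Dld, and the extremes of the pyruvate dehydrogenase list. Of the listed markers, Serpina1a, Prss1, Pnlip and Amy2a5 were not analysed here. Alternatives were other scalings, floors, filters, a variance trend, dropping the pair block, averaging probe sets, and omitting each pair. The number of arrays limits the precision.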

Additional observations from a re-analysis of the deposited data

How the results depend on the processing

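The adjusted test gave 0 passing probe sets with the settings reported, with signals as deposited, quantile normalization, no floor, no filter, and without pair 2 or 3. It gave 23 with a floor at 1 array median, 123 with a pseudocount of 1, 311 when the prior followed intensity and was robust, 40 above a mean signal of 2, and 224 without pair 1 (range 0 to 224 with 1 pair left out); the cause was not tested. Members among them were 2 with the pseudocount (Bcat2 and Ppm1k), 1 above a mean signal of 2 (Bcat2), 2 with the intensity-dependent prior (Bcat2 and Ppm1k) and 2 without pair 1 (Bcat2 and the dim Ppm1k probe set), with a range of 0 to 2 over pairs left out. The adjusted p of Bcat2 thus ran from 0.00533 to 0.799 over the alternatives, and that of the bright Ppm1k probe set from 0.00557 to 0.799. Of the other pathway genes 1 passed with the pseudocount and 1 with that prior, Klf15 in both. Without the littermate pair as a block, 0 probe sets passed (1283 with an unadjusted p under 0.05), 0 members passed, and no call changed.

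The count of member probe sets at 1.5-fold in all pairs was 5 at 1.2-fold, the dim one of Ppm1k among them, and 1 at 2-fold. Those lower in all pairs numbered 1 with signals as deposited, 1 above a mean signal of 2, and 2 to 4 with a pair left out (4 without pair 3). The log2 differences of Bcat2, Ppm1k, Hsd17b10, Ivd, Dbt and Auh kept their sign in all 13 alternatives, while those of Bckdha, Bckdhb and Bckdk each changed it in 1. Many of the 13 are no check of the sign. Filters, the variance trend and dropping the pair block cannot move these estimates, and the floors did not. Averaging probe sets cannot move a gene with 1 tested probe set. With the pseudocount Bcat2 was at 0.93, and averaged over its probe sets Auh was at -0.08. The share of all probe sets higher in KO was 42.1%, against 51.3% with signals as deposited and 50.2% after quantile normalization.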
